A study of Mus musculus with 6 samples.

Results

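Complex I, the NADH dehydrogenase of the mitochondrial respiratory chain, was followed through the genes of its nuclear-encoded subunits and assembly factors in aortas lacking endothelial nitric oxide synthase (eNOS). Members were taken by name, under a rule set with earlier results of these data known. Every gene with a single annotated symbol that begins with Nduf followed by a, b, c, s or v and a digit was a subunit. Every Ndufaf gene with a digit was taken as an assembly factor. That gave 33 subunits and 8 assembly factors, 41 of 22184 genes on the array, each read through its brightest probe set. All 41 passed the filter that removed dim genes, which left 18008 genes in the tests. Ndufa4, now known as a subunit of cytochrome oxidase, and its paralogue Ndufa4l2 carry the name and were counted, but are also given apart.

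The arrays came from 3 eNOS-deficient samples (11, 15 and 19, genotype eNOS-deficient) and 3 wild-type samples (2, 3 and 5), numbered by their titles. All were aorta, and the controls were described as age-matched and normal. The labels name no targeted allele, strain, sex, exact age or pooling, and do not say that each sample was a separate animal; p-values therefore cover only the spread between samples, which may be technical. Values are log2 signals on 1 array per sample, a difference of 1 being a 2-fold change, and every difference is eNOS-deficient minus wild type.

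Complex I takes electrons from NADH, passes them through a flavin and iron-sulfur clusters in its peripheral arm to ubiquinone, and pumps protons through its membrane arm. Core subunits of the peripheral arm, which carry the redox centres, are encoded in the nucleus; core subunits of the membrane arm are encoded in mitochondrial DNA; accessory subunits surround both and come from nuclear genes. Nitric oxide made by eNOS is known to act on mitochondrial respiration and on the expression of genes for mitochondrial biogenesis. In the aorta wall the chain is present in smooth muscle, and thoracic perivascular fat in mice contains brown adipocytes, which are rich in mitochondria.

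Upstream sequences of 3 subunit genes are shown because these genes lay among the subunits with the largest positive differences: Ndufs8 and Ndufs7, which both hold iron-sulfur clusters on the path to ubiquinone, and Ndufa11, an accessory subunit of the membrane arm. Each is the 250 bases before the annotated start (RefSeq, build GRCm38.p6), written 5′ to 3′ on the strand of the gene, with capitals for a match to a searched motif. Ndufs8 lies at chr19:3912775-3913024 (minus strand), Ndufs7 at chr10:80249199-80249448 (plus strand) and Ndufa11 at chr17:56717512-56717761 (plus strand).
Ndufs8: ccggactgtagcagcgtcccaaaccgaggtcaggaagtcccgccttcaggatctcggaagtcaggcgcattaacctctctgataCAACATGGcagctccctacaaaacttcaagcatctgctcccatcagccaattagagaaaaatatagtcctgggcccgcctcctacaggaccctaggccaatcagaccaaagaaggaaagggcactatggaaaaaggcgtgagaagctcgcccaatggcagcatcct
Ndufs7: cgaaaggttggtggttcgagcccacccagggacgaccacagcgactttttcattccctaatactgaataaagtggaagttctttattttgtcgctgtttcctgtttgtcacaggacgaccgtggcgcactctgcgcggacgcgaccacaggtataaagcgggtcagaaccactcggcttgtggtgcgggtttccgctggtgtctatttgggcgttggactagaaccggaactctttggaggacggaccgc
Ndufa11: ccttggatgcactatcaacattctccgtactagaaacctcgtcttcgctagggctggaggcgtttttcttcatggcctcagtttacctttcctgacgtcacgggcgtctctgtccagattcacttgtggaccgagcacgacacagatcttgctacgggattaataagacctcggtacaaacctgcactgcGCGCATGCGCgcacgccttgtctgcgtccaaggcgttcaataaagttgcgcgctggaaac
The capitals mark a match to the YY1 motif CCATNTTG in Ndufs8, in reverse orientation, and to the NRF1 consensus in Ndufa11, where they spell that motif in full. Ndufs7 held no match to any of the 4 motifs.

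The 4 motifs, searched on both strands, were those of factors known to drive respiratory chain genes. Promoters were at hand for 29 of the 33 subunits in 31 windows and for 7 of the 8 assembly factors in 7 windows. The YY1 motif was in 3 of 31 subunit windows (9.68%; Ndufb5, Ndufs8 and Ndufb11) and in 3.36% of all 32851 windows. The NRF1 motif was in 1 subunit window (3.23%, Ndufa11) and 1 assembly factor window (Ndufaf4), against 0.782% of all windows. The motif CCGGAAGNG of GABPA and other ETS factors was in 0 subunit windows and in the window of Ndufaf1, against 2.95% of all. The motif TCAAGGTCA of the oestrogen-related receptors was in none of the members' windows and in 0.387% of all. Median GC content was 57.6% in subunit windows and 52.4% in all windows. A match describes letters only and is not a shown site.

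Subunit genes were mostly a little higher in eNOS-deficient aorta, and none passed the test. Of 33 subunits 27 had a positive difference on the deposited scale, where 56.6% of all genes had one; the count was 29 with arrays centred on their medians, where 67.8% of all genes did, and 19 (57.6%) after quantile normalization was repeated, which is close to the 56.8% of all genes there. The median difference was 0.14 log2, or 0.20 and 0.08 under those scalings, against 0.04 over all genes tested, 0.10 and 0.03 under those scalings, and 0.08 over the 13057 genes brighter than the 50th percentile. After Benjamini-Hochberg adjustment over 18008 genes in limma, 0 of 33 subunits and 0 of 8 assembly factors were under 0.05, where 0.0278% of all genes were. At an unadjusted p under 0.05, 5 subunits were higher (15.2%) and 1 was lower, where 7.86% of all genes were higher and 3.72% lower. Over the alternatives, the lowest limma adjusted p among the 19 members described with every array's value was 0.0599, for Ndufs8 with array weights.

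At 10 of 33 subunits (30.3%) every eNOS-deficient array lay above every wild-type array, against 13.1% of all genes. At 1, Ndufa4l2, every eNOS-deficient array lay below, against 6.47% of all genes. With repeated quantile normalization 6 subunits (18.2%) were wholly above, against 10.7% of all genes, and with median centring 12 (36.4%), against 18.2%. The plot of differences shows how close most members lay to the bulk of the genes.

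**Figure D1:**
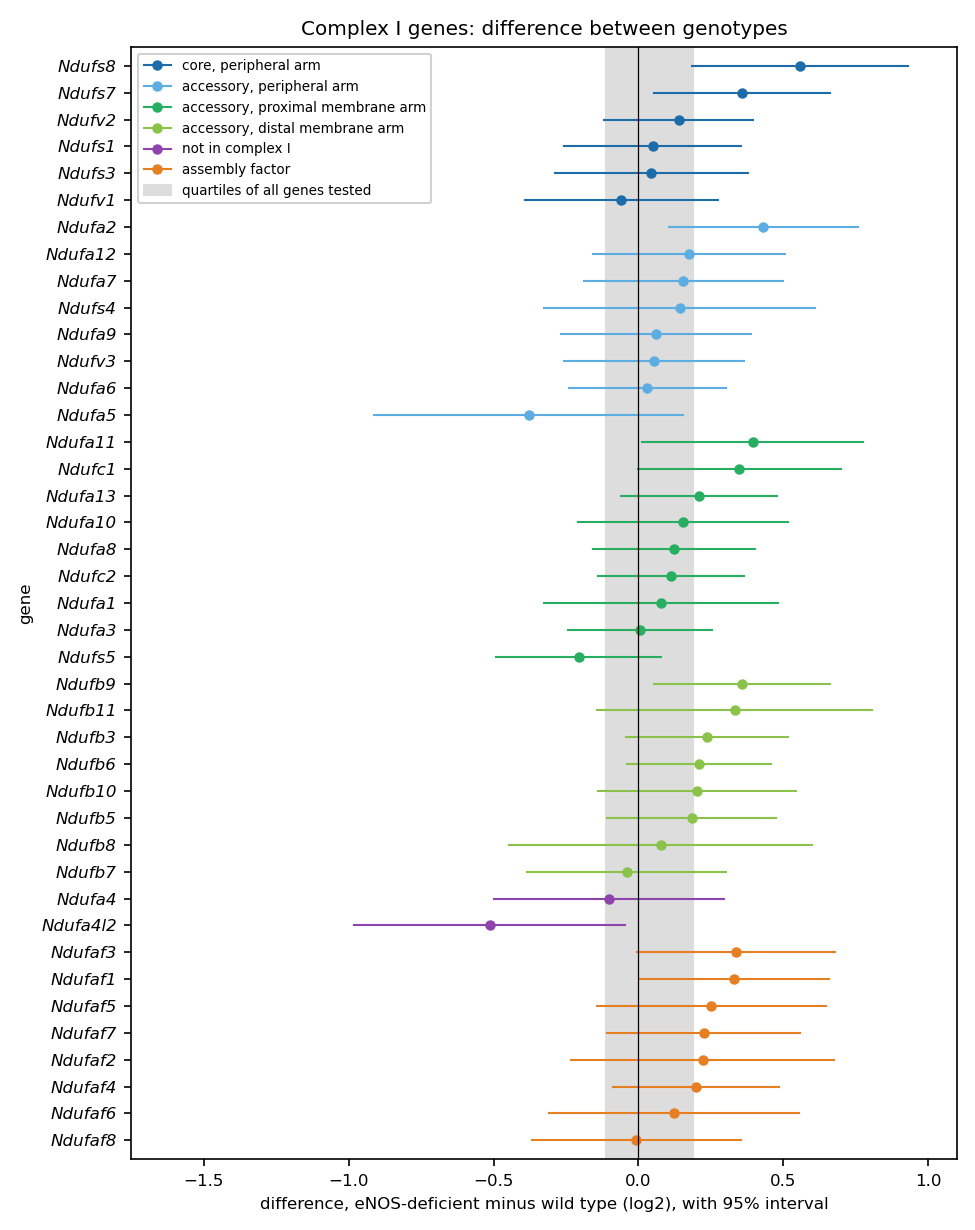
Differences (points) with 95% intervals from limma for the 41 complex I genes, on a log2 scale, coloured by place in the complex, with the middle quartiles of all genes tested in grey. Ndufs8 lies farthest to the right at 0.56 and Ndufa4l2 farthest to the left at -0.51.

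Of the core subunits of the peripheral arm, 6 were analysed. Ndufs8, which carries iron-sulfur clusters next to the ubiquinone site, had the largest difference of any member. It stood at 11.31, 11.38 and 11.07 on eNOS-deficient 11, 15 and 19, against 10.46, 10.72 and 10.91 on wild type 2, 3 and 5. The groups did not overlap, and wild type 5 came nearest to the eNOS-deficient arrays. Means were 11.26 ± 0.16 with eNOS deficiency and 10.70 ± 0.23 in the wild type (SD, n = 3 each), a difference of 0.56 (95% interval 0.19 to 0.93, limma unadjusted p = 0.00912, adjusted p = 0.295), or 1.47-fold. The exact permutation p was 0.1, the smallest that 3 arrays against 3 allow.

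Ndufs7, which holds the cluster that hands electrons to ubiquinone, stood at 13.005, 12.989 and 13.016 on the eNOS-deficient arrays, against 12.512, 12.572 and 12.852 on the wild-type arrays. The eNOS-deficient arrays were nearly level (SD 0.013), and the wild-type arrays were spread (SD 0.18), again with wild type 5 the highest. The difference was 0.36 (interval 0.05 to 0.66, limma adjusted p = 0.376). Its values lie near the top of the table, whose highest value is 13.94.

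The other core subunits differed little. Ndufv2, of the NADH-oxidising tip, stood at 12.04, 12.05 and 11.94 on the eNOS-deficient arrays, against 11.91, 11.90 and 11.81 on the wild-type arrays. Its groups did not overlap, though the difference was only 0.14 (interval -0.12 to 0.40, limma adjusted p = 0.668). Ndufv1, which binds NADH and the flavin, stood at 11.56, 11.47 and 11.23, against 11.52, 11.60 and 11.32 on the wild-type arrays, and its groups overlapped (difference -0.06, interval -0.39 to 0.27). Ndufs1, the largest subunit, stood at 10.63, 10.52 and 10.45 on the eNOS-deficient arrays, against 10.60, 10.55 and 10.30 on the wild-type arrays (difference 0.05, interval -0.26 to 0.36). Ndufs3, next to the ubiquinone-binding part, stood at 8.54, 8.39 and 8.30, against 8.56, 8.36 and 8.18 on the wild-type arrays (difference 0.04, interval -0.29 to 0.38). For these last 3, eNOS-deficient 11 and 15 lay within or close to the wild-type range. These 6 core subunits had a median difference of 0.09, with 5 positive and 1 negative.

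The accessory subunits of the peripheral arm had a median difference of 0.10 over 8 genes, 7 of them positive. Ndufa2, of the NADH-oxidising module, stood at 9.41, 9.33 and 9.10 on the eNOS-deficient arrays, against 8.73, 8.80 and 9.01 on the wild-type arrays. The groups did not overlap, with wild type 5 just below eNOS-deficient 19. The difference was 0.43 (interval 0.11 to 0.76, limma adjusted p = 0.337).

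Ndufa5, a small subunit of the ubiquinone-side module, was the accessory subunit with the most negative difference. It stood at 8.29, 7.92 and 7.78 on the eNOS-deficient arrays, against 8.67, 8.53 and 7.93 on the wild-type arrays. Wild type 5 lay inside the eNOS-deficient range (difference -0.38, interval -0.91 to 0.15, limma adjusted p = 0.559). The other 6 accessory subunits of this arm, Ndufs4, Ndufv3, Ndufa6, Ndufa7, Ndufa9 and Ndufa12, had differences between 0.03 and 0.18 with overlapping groups, although a second, dimmer probe set of Ndufa12 gave 0.37 without overlap. Ndufs4, best known because its loss in mice causes a Leigh-like disease, stood at 11.13 on wild type 2 and 11.50 to 11.84 on the other 5 arrays.

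**Figure D2:**
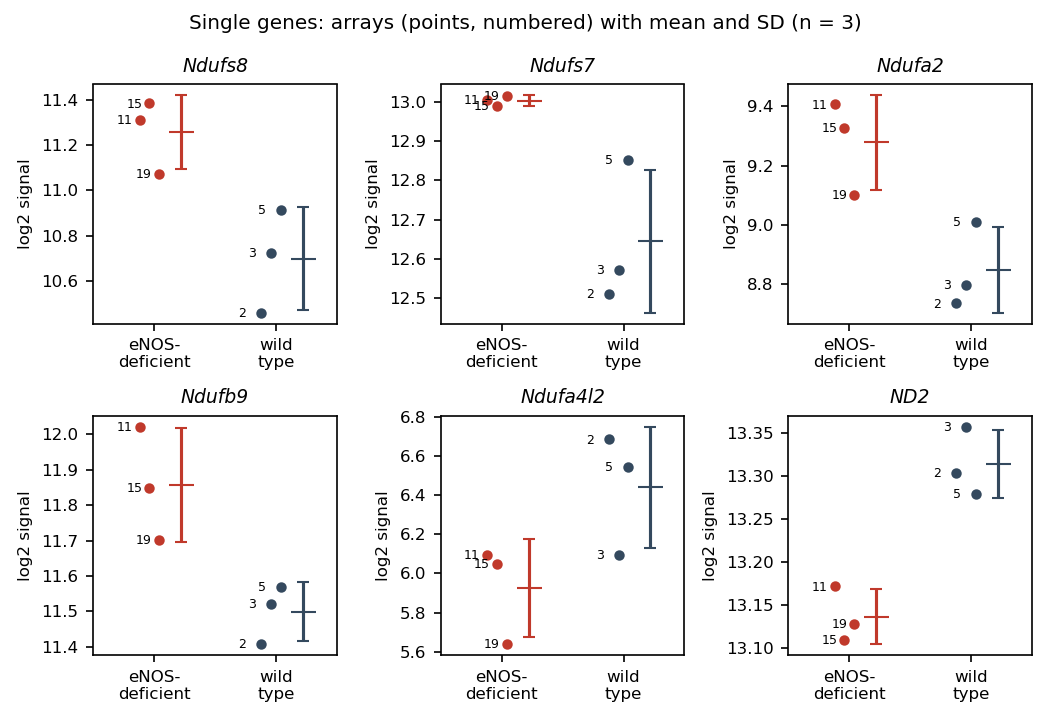
Log2 signal of 6 genes on each array, eNOS-deficient left and wild type right, with the array number beside each point and the mean and SD (n = 3) as bars. Axes do not start at 0. Ndufs8, Ndufs7, Ndufa2 and Ndufb9 are higher on all eNOS-deficient arrays, Ndufa4l2 and the mitochondrially encoded ND2 lower.

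In the proximal part of the membrane arm 9 accessory subunits had a median difference of 0.12, 8 of them positive. Ndufa11, an accessory subunit that helps hold the membrane arm together, stood at 11.17, 11.05 and 10.70 on the eNOS-deficient arrays, against 10.50, 10.48 and 10.75 on the wild-type arrays. The groups overlapped, since wild type 5 lay above eNOS-deficient 19 (difference 0.39, interval 0.01 to 0.77, limma adjusted p = 0.42). A second, dimmer probe set of Ndufa11 gave 0.36. Ndufc1, a small membrane subunit, stood at 9.03, 9.13 and 8.74, against 8.55, 8.78 and 8.51 on the wild-type arrays (difference 0.35, limma adjusted p = 0.432).

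Ndufs5, an accessory subunit on the intermembrane-space side, went the other way at a dim level. It stood at 5.67, 5.79 and 5.86 on the eNOS-deficient arrays, against 6.06, 6.03 and 5.85 on the wild-type arrays, and wild type 5 lay within the eNOS-deficient range. The difference was -0.21 (interval -0.49 to 0.08, limma adjusted p = 0.551), while a brighter probe set that also lists the pseudogene Ndufs5-ps gave 0.19. Ndufa13, known also as Grim19, was higher on every eNOS-deficient array (10.79 to 10.98, against 10.60 to 10.68 on wild-type arrays), as was Ndufc2 (12.46 to 12.58, against 12.38 to 12.42 on wild-type arrays). The others, Ndufa1, Ndufa3, Ndufa8 and Ndufa10, had differences of 0.0060 to 0.15 with overlapping groups.

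The distal part of the membrane arm had the largest median of the 4 positions, 0.21 over 8 genes, 7 of them positive, with no overlap at 4 (13.1% of all genes were higher without overlap). Ndufb9 stood at 12.02, 11.85 and 11.70 on the eNOS-deficient arrays, against 11.41, 11.52 and 11.57 on the wild-type arrays. Every eNOS-deficient array was the higher, by 0.36 on average (interval 0.05 to 0.66, limma adjusted p = 0.376). Ndufb6 ran from 10.95 to 11.03 on eNOS-deficient arrays and from 10.75 to 10.81 on wild-type arrays, without overlap (difference 0.21, limma adjusted p = 0.495). Ndufb3 and Ndufb10, without overlap, differed by 0.24 and 0.20, and Ndufb5 and the X-linked Ndufb11, with overlap, by 0.18 and 0.33.

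Ndufb7, on the intermembrane-space side of this segment, stood at 9.66, 9.38 and 9.29 on the eNOS-deficient arrays, against 9.64, 9.45 and 9.36 on the wild-type arrays. Its groups overlapped almost wholly (difference -0.04, interval -0.38 to 0.30). Ndufb8, often used as a protein marker of assembled complex I, differed by 0.08, and wild type 5 at 8.11 lay below the other 5 arrays (8.52 to 8.87). After repeated quantile normalization the medians were 0.036 for core and 0.014 for accessory peripheral subunits, 0.083 for proximal and 0.12 for distal ones. The median over all genes was then 0.034. With median centring the 4 medians were 0.16, 0.17, 0.19 and 0.27 in the same order, against 0.10 over all genes. Differences between the 4 positions were not tested. Ndufb2, Ndufb4 and Ndufs6 were on probe sets that list several symbols and are not among the 33; Ndufb1 was not analysed here.

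Ndufa4 and Ndufa4l2 both had negative differences. Ndufa4l2, known as a gene that hypoxia induces and that lowers oxygen use, stood at 6.09, 6.05 and 5.64 on the eNOS-deficient arrays, against 6.69, 6.09 and 6.54 on the wild-type arrays. eNOS-deficient 11 and wild type 3 were all but equal, so the groups met without crossing. The difference was -0.51 (interval -0.98 to -0.05, limma unadjusted p = 0.0355, adjusted p = 0.398). Ndufa4 stood at 11.58, 11.39 and 11.20, against 11.66, 11.62 and 11.21 on the wild-type arrays, with overlap (difference -0.10, interval -0.50 to 0.29). Without these 2 genes, 27 of 31 subunits had a positive difference on the deposited scale, with a median of 0.14.

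Assembly factors, which build the complex but are not part of it, had 7 of 8 positive differences (56.6% of all genes had one) and a median of 0.22, or 0.29 with median centring and 0.21 after repeated quantile normalization. At an unadjusted p under 0.05, 1 of 8 was higher (12.5%, against 7.86% of all genes), Ndufaf1, a chaperone of the membrane arm. It stood at 9.37, 9.42 and 9.29 on the eNOS-deficient arrays, against 8.91, 9.27 and 8.91 on the wild-type arrays. Every eNOS-deficient array was the higher, although wild type 3 lay only just below (difference 0.33, interval 0.0021 to 0.66, limma adjusted p = 0.43). Ndufaf3, which acts in early assembly around the ubiquinone module, stood at 9.49, 9.15 and 9.10, against 8.78, 8.95 and 8.99 on the wild-type arrays (difference 0.34, limma adjusted p = 0.435). Its groups did not overlap.

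Ndufaf4, a partner of Ndufaf3, stood at 8.74, 8.85 and 8.56 on the eNOS-deficient arrays, against 8.53, 8.54 and 8.48 on the wild-type arrays, without overlap (difference 0.20, interval -0.09 to 0.49). Ndufaf8, the partner of the hydroxylase Ndufaf5, stood at 7.49, 7.30 and 7.23, against 7.36, 7.57 and 7.11 on the wild-type arrays, and showed no direction (difference -0.0065, interval -0.37 to 0.35). Ndufaf2, Ndufaf5, Ndufaf6 and Ndufaf7 differed by 0.12 to 0.25 with overlapping groups. On the deposited scale 3 of the 8 were higher without overlap, against 13.1% of all genes, and after repeated quantile normalization 0 were, against 10.7% of all genes. Of 12 further assembly factors without the Nduf name, 11 had positive differences (median 0.21) and 0 passed. They were led by Tmem126b of the membrane-arm assembly complex, at 8.05, 7.71 and 7.74 on the eNOS-deficient arrays, against 7.25, 7.54 and 7.41 on the wild-type arrays (difference 0.43, limma adjusted p = 0.36).

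**Figure D3:**
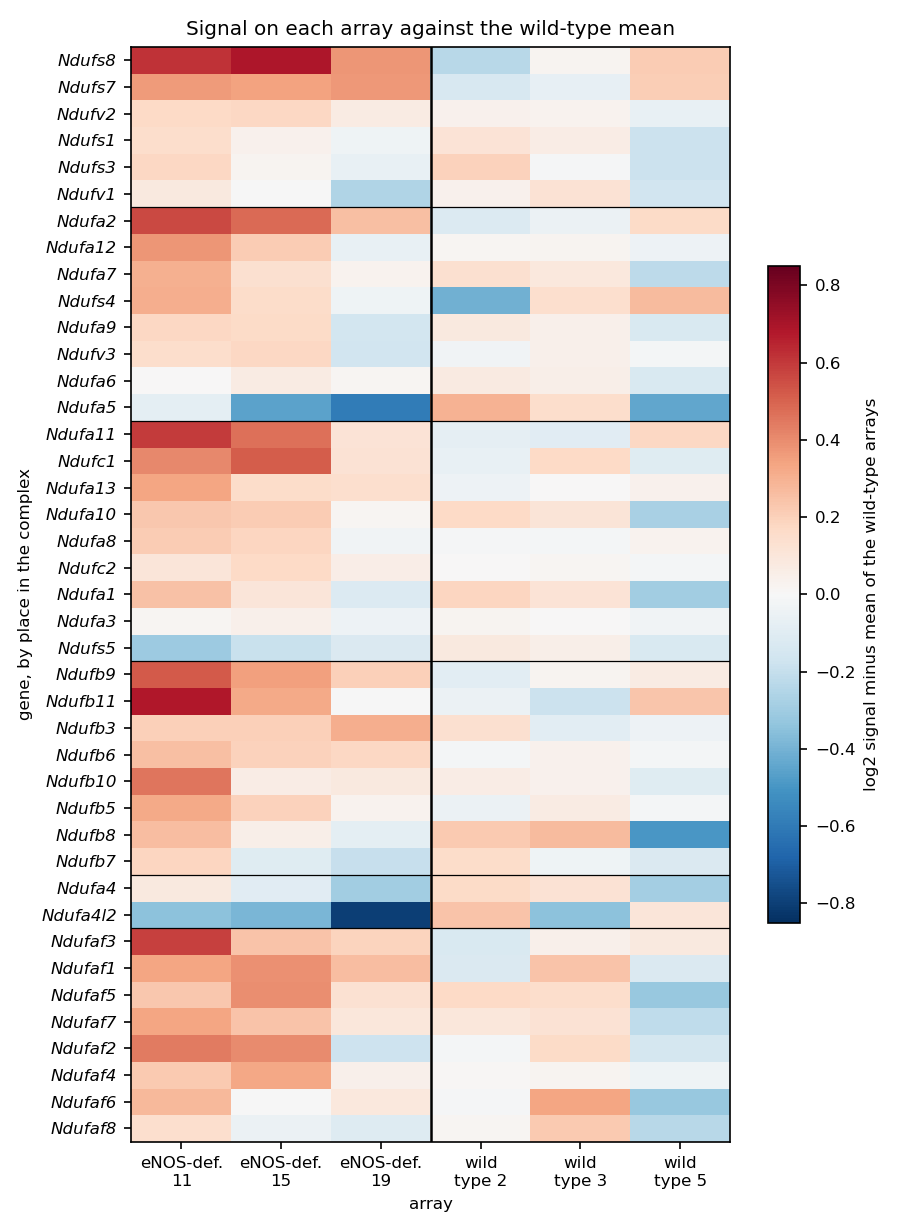
Log2 signal of each of the 41 complex I genes (rows, grouped by place in the complex) on each array, minus the mean of the 3 wild-type arrays, red above and blue below. The columns of eNOS-deficient 11 and 15 are mostly red, and those of eNOS-deficient 19 and wild type 5 are pale or blue for many genes.

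The members also varied between arrays of the same genotype. Of 33 subunits 23 were highest on eNOS-deficient 11 within their group (69.7%, against 37.0% of all genes), and 28 were lowest on eNOS-deficient 19 (84.8%, against 37.2% of all genes). Wild type 5 was the lowest wild-type array for 19 subunits (57.6%, against 47.7% of all genes) and for 7 of 8 assembly factors. Averaged over the 33 subunits, the arrays stood at 10.12, 10.02 and 9.86 for eNOS-deficient 11, 15 and 19, against 9.92, 9.91 and 9.82 for wild type 2, 3 and 5. Thus eNOS-deficient 19 lay within the wild-type range, and the groups overlapped. Without eNOS-deficient 11 the subunit median was 0.08 with 23 of 33 positive, and 1 subunit was higher at an unadjusted p under 0.05. Without wild type 5 it was 0.10 with 20 positive, and with both of these arrays left out, an alternative added after seeing the data, it was 0.02 with 17 positive. The median over all genes also moved, from 0.036 with all arrays to 0.041 without eNOS-deficient 11. It was 0.0013 without wild type 5 and 0.0069 without both. Shares of all genes that were positive or past the unadjusted threshold in these fits are not given here.

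Core membrane-arm subunits encoded in mitochondrial DNA had differences opposite in sign to most nuclear ones. All 7 were negative on the deposited scale and with median centring, and 6 of 7 after repeated quantile normalization, with medians of -0.15, -0.09 and -0.07, and 0 of 7 passed in limma at an adjusted p under 0.05 or an unadjusted one. ND2 stood at 13.17, 13.11 and 13.13 on the eNOS-deficient arrays, against 13.30, 13.36 and 13.28 on the wild-type arrays (difference -0.18, interval -0.43 to 0.07, limma adjusted p = 0.559). ND4L stood at 13.26, 13.23 and 13.22, against 13.39, 13.41 and 13.37 on the wild-type arrays (difference -0.15, limma adjusted p = 0.617). These differences were larger than the spread within each group on the deposited scale.

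ND1, ND3, ND4 and ND5 differed by -0.15, -0.08, -0.11 and -0.13, also without overlap. ND6, the only one on the other strand of mitochondrial DNA, stood at 7.57, 7.53 and 7.41, against 8.32, 7.70 and 7.46 on the wild-type arrays, with overlap. The 6 genes without overlap on the deposited scale, against 6.47% of all genes wholly lower, became 0 with median centring, against 3.75% of all genes, and 3 after repeated quantile normalization, against 5.17%. Their means of 13.14 to 13.88 lie close to the highest value of the table, 13.94. Of the 11 other genes with a mean of at least 13, 4 had negative differences and 7 positive (median 0.08). COX1, COX3 and CYTB, the mitochondrially encoded genes of complexes III and IV on the array, were also lower without overlap, by -0.13, -0.14 and -0.10. The part of signal level and scaling in these differences was not tested, nor was the difference between nuclear and mitochondrial genes.

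The remaining complexes of the chain had medians in the same range as complex I, and 0 of their genes passed in limma. At an unadjusted p under 0.05, complex II had 2 of 8 higher and 0 lower (median 0.18), complex III 3 of 14 and 0 (0.15), complex IV 2 of 13 and 0 (0.20), and complex V 2 of 16 and 1 (0.13). Over all genes 7.86% were higher and 3.72% lower at that threshold. Sdhaf4 and Sdhaf2, assembly factors of succinate dehydrogenase, differed by 0.55 and 0.48, and the complex III assembly factors Bcs1l and Uqcc2 by 0.37 and 0.33. Cox7a1, the muscle and brown fat form of a cytochrome oxidase subunit, differed by 0.31, Cox5b by 0.30, and the ATP synthase genes Atp5e and Atp5k by 0.42 and -0.41. Ndufab1, the mitochondrial acyl carrier protein that is also a complex I subunit but outside the name rule, differed by 0.06.

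**Figure D4:**
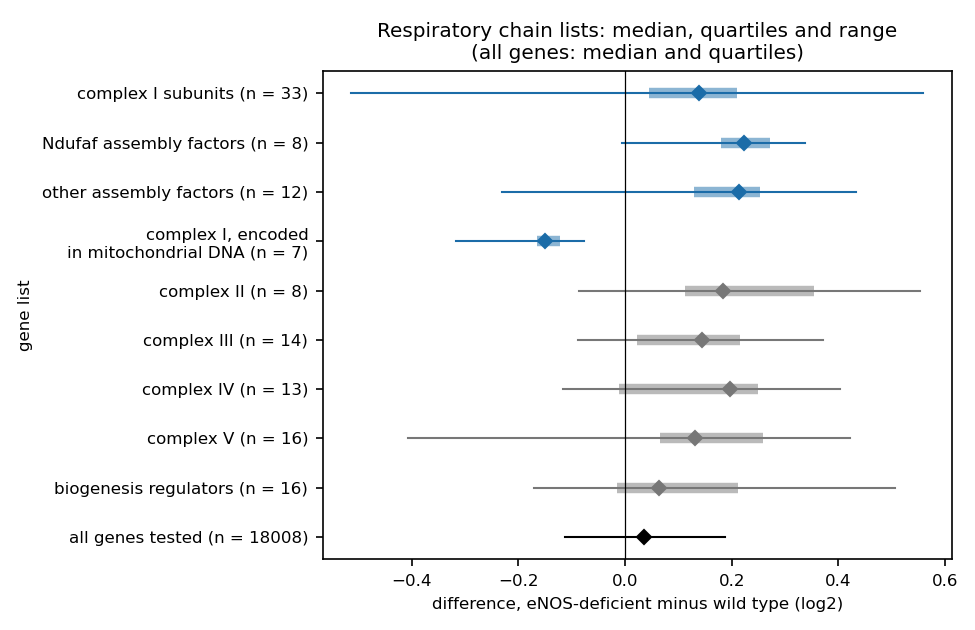
Differences of the respiratory chain lists on the deposited log2 scale, as median (diamond), quartiles (thick bar) and full range (line), with all genes tested as median and quartiles at the bottom. The mitochondrially encoded subunits are the only list with a median below 0, at -0.15.

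Marker genes of other cell types also varied between arrays, each list in its own order, and their array means did not all rank as those of the subunits did. Brown adipocyte markers, of which 9 of 12 were tested, had 8 positive differences and 0 past in limma. Their mean was 11.11 to 11.26 on eNOS-deficient arrays and 10.86 to 11.09 on wild-type arrays, without overlap, highest on eNOS-deficient 15. Ucp1, through which brown adipocytes make heat, was at 13.02, 13.12 and 13.02 on the eNOS-deficient arrays, against 12.91, 13.04 and 12.93 on the wild-type arrays. The list shares Cox7a1 and Cox8b with complex IV. With its mean as a covariate the subunit median was -0.04 with 15 of 33 positive, and the assembly factor median -0.13 with 3 of 8 positive, where the median over all genes was -0.020. In bulk tissue more cells of a type and more RNA per cell cannot be told apart.

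Skeletal muscle markers, all 12 tested and all positive, had means of 10.04 to 11.59 on eNOS-deficient arrays, with eNOS-deficient 11 the highest, and 9.14 to 10.98 on wild-type arrays. With them as a covariate the subunit median was 0.13 with 27 of 33 positive, where the median over all genes was 0.060. At an unadjusted p under 0.05, 2 subunits were higher, against 5 without the covariate. The share of all genes past that threshold in this fit is not given here. Cardiac muscle markers (10 tested) had means of 6.31 to 7.43 on eNOS-deficient arrays and 6.68 to 7.44 on wild-type arrays, and adipocyte markers (9 of 10 tested) had means of 10.62 to 10.72 on eNOS-deficient arrays and 10.38 to 10.83 on wild-type arrays. Smooth muscle markers, which define the tissue, had 9 of 10 positive and a median difference of 0.30. Their means were 9.084 to 9.360 on eNOS-deficient and 8.708 to 9.082 on wild-type arrays, narrowly without overlap. At 7 of the 10 genes every eNOS-deficient array was the higher, against 13.1% of all genes, and at 3 the groups overlapped. The part of each in the complex I differences was not tested.

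**Figure D5:**
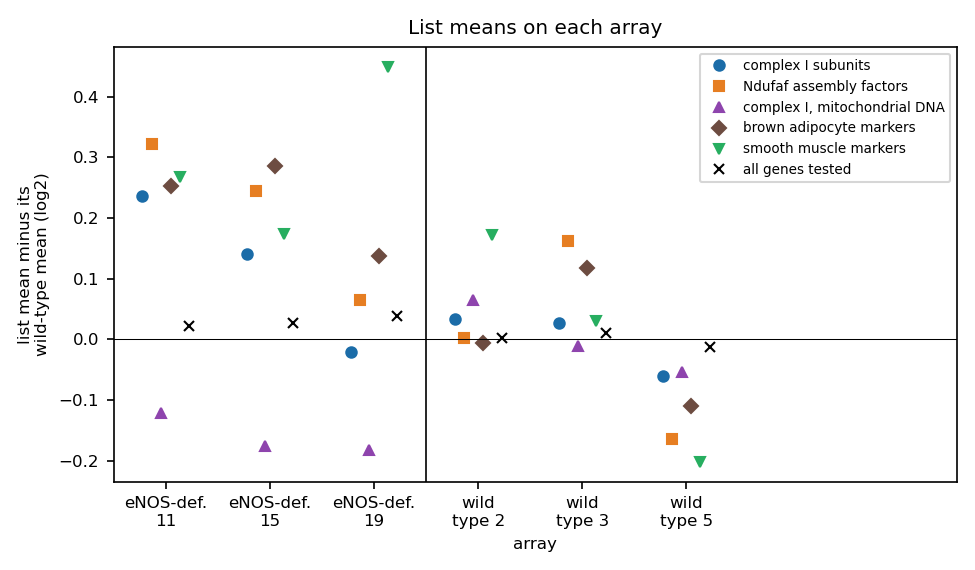
Mean log2 signal of 5 gene lists and of all genes tested on each array, minus the mean of the same list over the 3 wild-type arrays. Complex I subunits and assembly factors are highest on eNOS-deficient 11 and lowest on wild type 5, and the mitochondrially encoded subunits lie below 0 on every eNOS-deficient array.

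Other features also varied between these arrays. Nos3, the targeted gene, stood at 7.13, 7.39 and 7.27 on eNOS-deficient arrays, against 7.99, 7.88 and 7.36 on wild-type arrays, so wild type 5 lay inside the eNOS-deficient range (difference -0.48, limma adjusted p = 0.399). Whether its probes lie in the deleted stretch is not known here. Squamous epithelium markers had list means of 5.09 to 5.39 on eNOS-deficient arrays and 5.56 to 8.64 on wild-type arrays, highest on wild type 5. Endothelial markers ran from 8.16 to 8.50 on eNOS-deficient arrays and from 8.01 to 8.84 on wild-type arrays, lowest on wild type 5. Means of 3 Y-linked genes were 4.71 to 8.002 on eNOS-deficient arrays and 3.47 to 3.63 on wild-type arrays, with eNOS-deficient 15 between the others of its group and the wild type. All 3 genes were higher on every eNOS-deficient array than on any wild-type array. Sex is not in the labels, so a difference of sex between the groups cannot be told apart from genotype here. Macrophage markers had higher means on every eNOS-deficient array (8.21 to 8.61) than on wild-type arrays (7.50 to 7.85), as did fibroblast markers (9.07 to 9.35 with eNOS deficiency and 8.55 to 8.92 in the wild type). Lymphocyte markers ran from 6.02 to 8.52 on eNOS-deficient arrays, lowest on eNOS-deficient 11, and from 7.65 to 8.14 on wild-type arrays. Their part in the complex I differences was not tested.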

How the data were processed

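RNA of 6 aorta samples was measured on Affymetrix arrays, 1 per sample, with 300 ng of RNA going into the biotin labelling, per the labels' protocols. The deposited table holds log2 values. Affymetrix Expression Console 1.3.1 and RMA are named in the submitters' processing notes. The values were used as deposited, with no new step from probe intensities. Array medians ran from 5.55 to 5.59 on eNOS-deficient and 5.61 to 5.68 on wild-type arrays, without overlap.

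Of 41345 probe sets, 23525 listed 1 symbol, 1810 several and 16010 none in the platform annotation. The probe set with the highest mean was kept for each of 22184 genes, and genes with a mean below 4.38 log2, the 25th percentile over probe sets, were dropped. limma 3.58.1 in R 4.3.3 (lmFit, eBayes, two-sided, no covariates) was run on 18008 genes with Benjamini-Hochberg adjustment and a threshold of 0.05; the median standard error of a difference was 0.16. Single genes were also given an exact permutation test, which cannot go below 0.1. The number of arrays limits the precision. The scripts were tested on simulated data. The members, lists and naming rule were chosen with earlier results of these data known. Values on each array were to be given for the core subunits, for the 6 subunits and 3 assembly factors with the smallest p in each direction, and for Ndufa4 and Ndufa4l2; comparison lists gave at most 2 genes each. Other genes were named after their values were seen. Gene lists were matched by symbol; chromosomes and promoters came from RefSeq (GRCm38.p6), whose build the deposited files do not name. Motifs were searched in the 250 bases before each start. Plots were drawn with matplotlib 3.10.9.

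Alternatives covered the dim filter (none, or the 50th percentile), the variance model (trended and robust), averaged probe sets, scaling (median centring or another round of quantile normalization), array weights, a covariate (brown adipocyte or skeletal muscle markers), the threshold, and the omission of each array. A fit lacking both eNOS-deficient 11 and wild type 5 was added after seeing the data.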

Additional observations from a re-analysis of the deposited data

Results flagged for a closer look

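The name rule left out 6 probe sets that list a subunit together with other symbols, of which 3 had positive and 3 negative differences, and 4 had overlapping groups. The 2 without overlap are described here, where 13.1% of all genes were higher without overlap, and neither was under an unadjusted p of 0.05 in limma over all probe sets (0.0836 and 0.0761). The probe set of Ndufb4 and its near copies Ndufb4b and Ndufb4c stood at 8.99, 8.86 and 8.67 on eNOS-deficient arrays, against 8.50, 8.55 and 8.63 on wild-type arrays. It differed by 0.28 without overlap, and the signal cannot be assigned to 1 of these genes. The probe set of Ndufb2 and Adck2 stood at 7.17, 6.80 and 6.86 on eNOS-deficient arrays, against 6.63, 6.68 and 6.59 on wild-type arrays, and differed by 0.31 without overlap. Neither is part of the counts above.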

How the results depend on the processing

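The numbers of arrays and the spread between them limit these results: with 3 arrays a genotype, no exact permutation p can go below 0.1, and 1 array could decide a count. No paired analysis was possible because the replicate numbers are not shared by the genotypes. Of the 19 members described with every array's value, 13 kept their direction in every alternative run and 6 did not. No subunit or assembly factor passed an adjusted p under 0.05 in any of these fits; at an unadjusted threshold 6 subunits and 1 assembly factor did. The cause of each change below was not tested.

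The count of genes past the adjusted threshold was 5. It was 3 with no filter on dim genes, 2 with probe sets averaged per gene, 2 after repeated quantile normalization, 119 with array weights, 0 with brown adipocyte markers as a covariate, 1 with skeletal muscle markers as a covariate, 2 without both eNOS-deficient 11 and wild type 5, and 8 at an adjusted p under 0.1. Assembly factors higher at an unadjusted p under 0.05 numbered 1, against 0 with no filter, after repeated quantile normalization, with the brown adipocyte covariate or without both arrays, and 2 with a trended and robust variance, median centring or array weights. Subunits lower at that threshold numbered 1, against 0 under either other scaling, 3 with array weights and 2 without both arrays. Subunits higher numbered 5, against 1 with the brown adipocyte covariate, 2 with the skeletal muscle covariate and 3 without both arrays. In the main fit 7.86% of all genes were higher and 3.72% lower at that threshold. Shares of all genes in the alternative fits, including those below that leave out an array, are not given here. These changes in count therefore cannot be read as particular to the members. Positive differences were found for 27 subunits, against 15 with the brown adipocyte covariate and 17 without both arrays, and for 7 assembly factors, against 3 with that covariate.

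With the brown adipocyte covariate the median differences were -0.039 for subunits, -0.13 for assembly factors, -0.055 for core subunits, -0.12 for accessory peripheral subunits, -0.022 for proximal membrane subunits, -0.077 for other assembly factors, -0.25 for complex II, -0.11 for complex III, -0.031 for complex IV, -0.0087 for complex V and -0.084 for biogenesis regulators. That covariate did not overlap between the genotypes, and the median over all genes was -0.020. With the skeletal muscle covariate complex IV had 0.064, where the median over all genes was 0.060. Without both arrays the medians were 0.024 for subunits, 0.0016 for core subunits, 0.053 for other assembly factors, 0.017 for complex II, 0.076 for complex IV and -0.048 for biogenesis regulators. The median over all genes tested was then 0.0069. Mitochondrially encoded subunits had -0.086 with median centring and -0.070 after repeated quantile normalization.

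Single members changed sign as follows. Median centring gave 0.0065 for Ndufv1, 0.025 for Ndufb7 and 0.059 for Ndufaf8. Repeated quantile normalization gave -0.041 for Ndufs1 and -0.048 for Ndufs3, and array weights -0.025 and -0.044. The brown adipocyte covariate gave -0.022 for Ndufc1, -0.16 for Ndufs1 and -0.13 for Ndufs3, and the skeletal muscle covariate 0.025 for Ndufaf8. Without both arrays Ndufs1 had -0.089 and Ndufs3 -0.11.

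Leaving out each array in turn gave 0 to 6 genes past the threshold, 1 to 6 subunits higher and 0 to 1 lower at an unadjusted p under 0.05, and 0 to 2 assembly factors higher. The median ran from 0.075 (without eNOS-deficient 11) to 0.20 for subunits, 0.034 to 0.15 for core subunits, 0.13 to 0.30 for assembly factors, 0.12 to 0.28 for other assembly factors, 0.068 to 0.29 for complex II, 0.053 to 0.22 for complex IV and -0.053 (without wild type 5) to 0.15 for biogenesis regulators. Over all genes it ran from 0.0013 (without wild type 5) to 0.060 (without wild type 3). Ndufaf8 ran from -0.12 to 0.10, Ndufb7 from -0.15 to 0.037, Ndufs1 from -0.040 to 0.11, Ndufs3 from -0.048 to 0.14 and Ndufv1 from -0.14 to 0.038.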

Other observations

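Regulators of mitochondrial biogenesis, a list of 16 genes, had 10 positive differences (62.5%, against 56.6% of all genes) and a median of 0.06. In limma 3 were higher at an unadjusted p under 0.05 (18.8%, against 7.86% of all genes), 0 were lower, and 0 passed after adjustment. Tfb1m, which methylates mitochondrial ribosomal RNA, stood at 8.71, 8.70 and 8.57 on eNOS-deficient arrays, against 7.93, 8.17 and 8.36 on wild-type arrays. The groups did not overlap (difference 0.51, limma adjusted p = 0.295). Ssbp1, the protein that coats single-stranded mitochondrial DNA, stood at 7.46, 7.15 and 7.25 on eNOS-deficient arrays, against 6.82, 6.93 and 6.89 on wild-type arrays (difference 0.41, limma adjusted p = 0.325).

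Both probe sets of Ndufs6 and its copy Ndufs6b had negative differences, of -0.14 and -0.16, with overlapping groups. The 41 complex I genes lay on 16 chromosomes, with 6 on chromosome 17 and 2 on the X chromosome.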
